A study of Homo sapiens with 63 samples.

Results

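The genes described here are 36 genes of the G1/S transition and of DNA replication, chosen by a fixed list of gene symbols and read across 21 groups of HEK293T cells. Each symbol matched 1 gene of the 58336 in the count table, and all 36 were among the 19352 genes that passed the low-count filter, with at least 315 counts in every library. Total RNA was sequenced from HEK293T cells, which derive from human embryonic kidney and which, in all groups, carried an ectopic Halo protein. Cells were sampled at 6 h, 12 h and 18 h in 7 arms of 3 libraries each: DMSO as the control, ibuprofen bolus, ibufenac bolus, photocaged ibuprofen, photocaged ibufenac, ibuprofen probe and ibufenac probe. Ibufenac is an anti-inflammatory drug that lacks the α-methyl group of ibuprofen, and both are converted in the body to reactive acyl glucuronides.

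Per the study's design text, a precursor of each drug's acyl glucuronide was bound to Halo during a 2 h incubation at 10 µM and unbound compound was washed out. The glucuronide was then released by light (365 nm, 5 mW/cm2, 3 min). The labels give neither the dose of the bolus arms nor how the photocaged and probe arms differ, and they do not say which groups were lit. They also do not say whether the 3 libraries of a group came from separate cultures, so p-values measure the spread between these libraries, which may be technical. HEK293T cells carry the SV40 large T antigen, which binds RB-family proteins, and they are not liver cells, which limits them as a model of a liver cell's cycle under a drug.

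In late G1, cyclin E with its kinase and the loss of RB from E2F factors switch on the genes needed to copy DNA, and E2F8 and related repressors later switch them off. CDC6 and CDT1 load the MCM2-7 helicase on origins, CDC45 and the GINS complex turn it on, and polymerases held by the PCNA clamp copy the strands. RRM1, RRM2 and TYMS supply the nucleotides, and CAF-1, UHRF1 and SLBP serve the packaging of new DNA into chromatin. In bulk RNA, fewer cells in late G1 or S phase and less RNA per cell cannot be told apart.

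Libraries held 12.1 to 38.4 M counts (median 19.6 M), and the 36 genes together took 0.462% to 0.591% of them. Of the marker genes expected in HEK293T cells, VIM (median 223 FPKM, fragments per kilobase and per M fragments) and KRT18 (median 31.6 FPKM) were well expressed and PAX2 was near 0 (median 0.0468 FPKM). The hepatocyte markers TTR, SERPINA1 and CYP3A4 and the blood markers PTPRC, CD3E and HBB had a median of 0. The third libraries of ibufenac bolus at 6 h and at 18 h stood apart from their group mates, with root mean square log2 differences of 0.429 and 0.439 against a limit of 0.388, and results that rest on them are given with and without them. Libraries also differed in how counts depended on GC content: the slope of a library's log2 level on transcript GC, per 10 points of GC, ranged by group mean from -0.22 in ibuprofen probe at 6 h to 0.14 in DMSO at 18 h. Several of the 36 genes are GC-rich, so values with the GC and length trends of each library removed are given beside many of the results.

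Many promoters of S-phase genes are known to carry binding motifs of E2F factors, so the motif was looked for here. Promoter windows from 250 bases before to 50 bases after the start site were taken from RefSeq (GRCh38.p14) for 31 of the 36 genes. No window was used for CCNE2, E2F8, GINS4, MCM4 and MCM5. An E2F-type motif was searched for as TTTCCCGC, TTTGGCGC, TTTCGCGC or TTTGCCGC on both strands, where 2 matches may overlap when they read the same letters on opposite strands. A match was present in 19 of 39 windows of these genes (48.7%), for 18 of the 31 genes, against 1164 of 35116 windows of all genes (3.32%). The median GC content of the windows was 68.0% for these genes and 58.7% for all. A match describes letters only. The 200 bases before the start site are shown for 3 genes whose values are described at length below, 5′ to 3′ on the gene's strand with the matches in capitals.

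E2F1 (chr20:33686386-33686585, minus strand): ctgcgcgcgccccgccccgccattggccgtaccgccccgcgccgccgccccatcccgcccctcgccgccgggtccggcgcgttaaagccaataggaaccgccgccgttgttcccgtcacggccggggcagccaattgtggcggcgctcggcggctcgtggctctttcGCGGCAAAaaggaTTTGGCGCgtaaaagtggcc
CDT1 (chr16:88803589-88803788, plus strand): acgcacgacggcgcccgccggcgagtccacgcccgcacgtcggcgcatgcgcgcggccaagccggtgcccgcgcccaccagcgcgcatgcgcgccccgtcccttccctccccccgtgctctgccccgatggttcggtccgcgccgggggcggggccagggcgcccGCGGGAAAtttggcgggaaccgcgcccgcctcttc
MCM6 (chr2:135876444-135876643, minus strand): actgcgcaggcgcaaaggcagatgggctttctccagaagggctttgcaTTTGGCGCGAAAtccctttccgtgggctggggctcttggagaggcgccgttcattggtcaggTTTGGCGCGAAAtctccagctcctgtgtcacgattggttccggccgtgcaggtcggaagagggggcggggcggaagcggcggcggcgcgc

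E2F1 had 2 matches close to its start site, CDT1 had 1, and MCM6 had 2 stretches in which overlapping matches on both strands form 1 run of capitals. Each of these 3 genes had groups in which it rose or fell, given below with its role.

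Levels per length spanned a wide range (FPKM, mean ± SD over 63 libraries). MCM7, a helicase subunit, was the highest at 225 ± 18.2 FPKM, followed by PCNA, the sliding clamp, at 203 ± 17.3 FPKM and MCM3 at 155 ± 16.9 FPKM. MCM4, RRM1 (the large subunit of ribonucleotide reductase), MCM2 and MCM5 lay between 84.0 and 109 FPKM. The other helicase subunit, MCM6, was lower at 35.1 ± 4.60 FPKM. Of the factors that act on the helicase, CDC45 had 51.9 ± 5.96 FPKM, CDC6 51.8 ± 8.44 FPKM, CDT1 16.6 ± 4.24 FPKM and GINS4 15.2 ± 2.00 FPKM. Of the transcription factors, E2F1 had 27.5 ± 4.04 FPKM, E2F2 17.4 ± 2.39 FPKM and E2F8, the lowest of the 36, 8.07 ± 1.53 FPKM. Cyclins CCNE1 and CCNE2 were close to each other at 19.5 ± 2.94 and 20.2 ± 2.99 FPKM, a gap smaller than either spread.

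**Figure D1:**
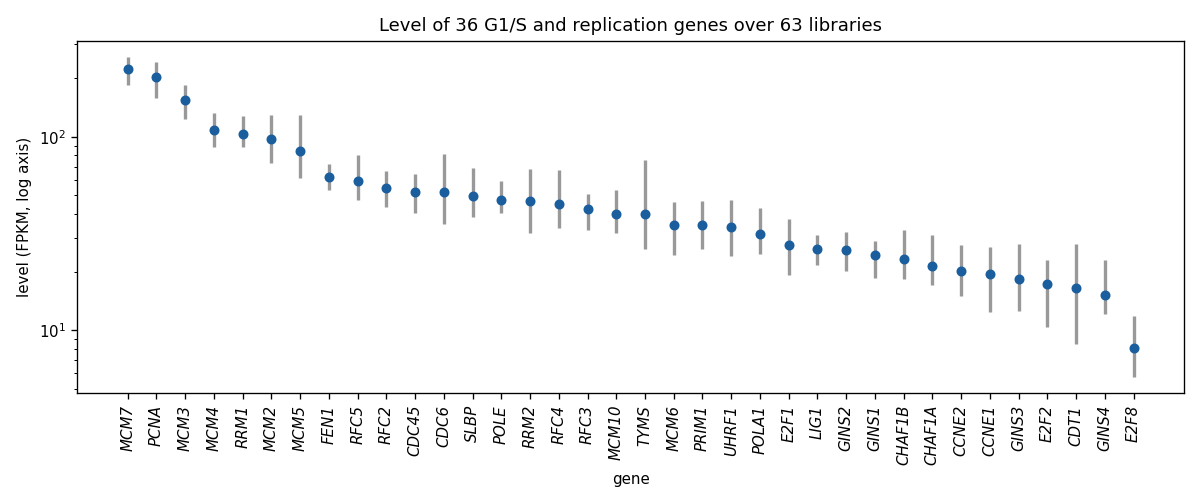
Level of each of the 36 genes in FPKM on a log axis; points are means over 63 libraries and bars run from the lowest to the highest library. MCM7, PCNA and MCM3 are the highest and E2F8, at 8.07 FPKM, is the lowest.

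Replicates agreed more closely for some genes than for others. On the log2 scale of normalised counts (CPM, counts per M counts of the library after TMM scaling), the SD within groups was 0.05 for MCM4 and 0.06 for MCM10 and MCM3, and it was 0.27 for CDT1, 0.23 for TYMS and 0.19 for UHRF1. CDT1, with a transcript GC content of 64.9%, was the most GC-rich of the 36. For 7 genes more than 10% of exon bases are shared with another annotated gene, and whether the counting used strand is not given in the sources used here. These are TYMS (58.2% shared with ENOSF1), CCNE2 (47.5% with INTS8), MCM2 (30.7% with AC023593.1), GINS4 (21.2% with AC009630.2) and GINS3 (16.5% with AC009118.2), all on the opposite strand, and RRM2 (27.9% with AC007240.1) and PRIM1 (26.0% with AC117378.1) on the same strand. Their values may include reads of those genes.

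The cells of the DMSO arm themselves changed over the 12 h between the first and last harvest. Between 6 h and 18 h, 10 of the 36 genes fell and 1 rose (edgeR, 30.6% called), against 17.5% of all tested genes called in either direction and 10.0% called lower. Here and below, adjusted p-values come from edgeR's quasi-likelihood test with Benjamini-Hochberg adjustment over all tested genes, a threshold of 0.05, and differences are log2 ± SE with n = 3 libraries per group at a single time. MCM3 was at 526, 524 and 503 CPM at 6 h and at 414, 432 and 376 CPM at 18 h, with no overlap (log2 difference -0.35 ± 0.06, adjusted p = 5.46e-06). E2F8, the repressor among the E2F factors, went from 34.5, 32.4 and 32.5 CPM to 22.9, 27.0 and 23.7 CPM (-0.43 ± 0.11, adjusted p = 0.00456). In neither gene did the 6 h and 18 h libraries overlap, and the same held for the other genes that fell. These genes were called from the same libraries, so the lack of overlap adds no support to the calls. How often it occurs over all tested genes was not computed. Also lower were E2F2, the clamp loader genes RFC3 and RFC5, the helicase genes GINS1, GINS2 and MCM10, the loading factor CDC6 and SLBP, which binds histone mRNA. The exception was PRIM1, the catalytic subunit of primase, which rose (0.27 ± 0.09, adjusted p = 0.0299). CDC6 had 179.8, 177 and 175 CPM at 6 h and 172, 162 and 117 CPM at 18 h, and the third library was the low one. Leaving out DMSO 18 h replicate 3 or DMSO 6 h replicate 2 left 7 calls, and with GC and length trends removed 9 genes were called (background 18.6%), 6 of them among the 11. Between 6 h and 12 h PRIM1 alone passed (background 3.82%), and the call ended without any 1 of the 6 libraries. Between 12 h and 18 h 5 genes passed (background 5.27%), CDT1 higher and MCM3, MCM10, RFC3 and POLA1 lower, and 2 did without DMSO 12 h replicate 2 or 3.

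In every drug arm the 18 h samples were also compared with the 6 h samples of the same arm, a comparison chosen after the data were seen, and each arm has its own libraries. In the photocaged and probe arms the genes that changed were nearly all lower at 18 h. In photocaged ibuprofen 17 genes fell and none rose (background 12.2% in either direction and 6.91% lower), and in photocaged ibufenac 18 fell and none rose (background 10.1% and 5.31%). With ibuprofen probe 14 fell and none rose (background 14.4% and 7.24%). With ibufenac probe 19 fell and 1, RRM2, rose (background 22.9% and 10.3%). The bolus arms were mixed, with 8 lower and 3 higher in ibuprofen bolus (background 23.4%) and 6 lower and 5 higher in ibufenac bolus (background 19.2%). Single libraries moved 2 of these counts by over 1.5 times. Photocaged ibuprofen had 11 calls without its 6 h replicate 3 or its 18 h replicate 1, and ibuprofen bolus had 6 without its 6 h replicate 2 and 7 without its 18 h replicate 2.

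The median log2 change of the 36 genes from 6 h to 18 h was -0.10 in DMSO, -0.09 and -0.13 in the ibuprofen and ibufenac bolus arms, -0.24 and -0.26 in the photocaged arms, and -0.16 and -0.24 in the probe arms. The median over all tested genes lay between -0.02 and 0.03 in the 7 arms. MCM3 was lower at 18 h in all 7 arms, and so was E2F2, though without the libraries that stand apart the E2F2 call in ibufenac bolus ended (-0.32, adjusted p = 0.0753), as did that of MCM4. MCM10 and RFC5 were lower in 6 of 7 arms, and in 5 and 4 with the GC and length trends removed. CDC6, GINS2, MCM4 and E2F8 were lower in 5 arms, and in 4, 3, 5 and 6 with the trends removed. At the other end TYMS, the thymidylate synthase, had a positive log2 change in all 7 arms (0.15 to 0.49), none of which passed, and with the trends removed 2 did, in ibuprofen bolus and ibuprofen probe. PCNA rose in ibuprofen bolus with and without the trends. Its rise in ibufenac bolus ended with the trends removed (0.16, adjusted p = 0.296), and that in ibuprofen probe then passed (0.30, adjusted p = 0.047). GINS4 of the GINS complex, the ligase LIG1 and CCNE1 passed in no arm in either direction. With GC and length trends removed, the counts of calls were 20 in photocaged ibuprofen (background 15.0%), 22 in photocaged ibufenac (background 11.9%), 13 in ibuprofen probe (background 12.8%) and 23 in ibufenac probe (background 25.8%). Without the libraries that stand apart, ibufenac bolus had 8 calls in place of 11, 6 of them shared.

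**Figure D2:**
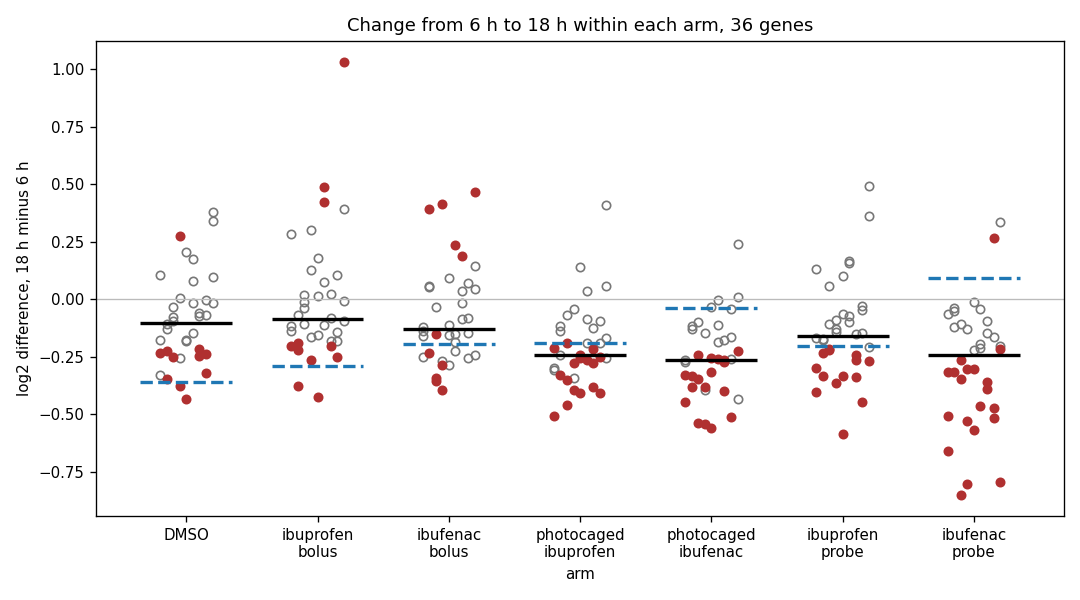
log2 difference between 18 h and 6 h within each of the 7 arms (vertical axis); each point is 1 of the 36 genes, filled red where it passed the edgeR test, the black line is their median and the dashed blue line is the median of 30 G2/M genes. Red points lie almost wholly below 0 in the photocaged and probe arms, and the G2/M median is below that of the 36 genes in DMSO and above it in ibufenac probe.

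Whether the change over time differed from that of DMSO was tested directly, as the change from 6 h to 18 h in an arm minus that in DMSO. With ibufenac probe the change differed for 12 of 36 genes, 11 towards lower and 1 towards higher, against 7.98% of all tested genes. The largest shifts were in CDT1 (-1.17 ± 0.29, adjusted p = 0.00557), E2F1 (-0.82 ± 0.17, adjusted p = 0.00119), MCM5 (-0.81 ± 0.19, adjusted p = 0.00391) and MCM2 (-0.76 ± 0.17, adjusted p = 0.00243). MCM4, MCM6, MCM7, CDC45, PRIM1, CHAF1A and CHAF1B also shifted lower, and RRM2 shifted higher (0.34 ± 0.10, adjusted p = 0.0351). Of these 12, RRM2, MCM7 and CHAF1A no longer passed with the trends removed, while CDT1 stayed at -0.69 (adjusted p = 0.000214) and E2F1 at -0.44 (adjusted p = 0.00693). The count fell to 6 without DMSO 6 h replicate 1, and to 7 without ibufenac probe 6 h replicate 2 or 18 h replicate 2.

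In the other arms the difference from the DMSO time course was called for 0 genes in ibuprofen bolus, photocaged ibuprofen, photocaged ibufenac and ibuprofen probe (backgrounds 0.0%, 0.0568%, 0.636% and 0.0362%). In the same order, 3, 6, 14 and 3 of the 36 had an unadjusted p under 0.05 with edgeR, and DESeq2 called 0, 0, 1 and 0. In ibufenac bolus 1 gene passed (background 0.672%), CCNE2 (0.50 ± 0.13, adjusted p = 0.047), and 0 did without the libraries that stand apart, without DMSO 6 h replicate 1 or 3, without DMSO 18 h replicate 1 or without ibufenac bolus 18 h replicate 1. Without ibufenac bolus 6 h replicate 1, 3 genes passed, and without ibufenac bolus 18 h replicate 2 or DMSO 18 h replicate 3, 2 did. For photocaged ibufenac 1 gene passed without DMSO 18 h replicate 3. In photocaged ibufenac 2 genes passed with the trends removed (background 0.78%) and 3 without a low-count filter, and in photocaged ibuprofen 2 passed without that filter.

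Averaged over the 3 times against DMSO (n = 9 libraries per arm), few of the 36 genes moved. In the bolus arms 0 passed (backgrounds 0.0258% for ibuprofen and 0.0103% for ibufenac), 4 and 3 had an unadjusted p under 0.05 with edgeR, and DESeq2 also called 0. Photocaged ibuprofen had 3 lower genes (background 4.28%, 2.3% lower) and photocaged ibufenac 1 higher gene (background 7.49%, 4.13% higher). Ibuprofen probe had 5 lower genes (background 8.43%, 4.61% lower). Ibufenac probe had 2 higher and 2 lower genes (background 13.2%). The shares of the 36 genes called, 8.33%, 2.78%, 13.9% and 11.1% in that order, differed from the background by no more than a few genes. With the trends removed 6, 3, 8 and 9 genes were called in that order (backgrounds 5.69%, 8.93%, 8.46% and 16.3%), all lower except 2 in ibufenac probe. The medians of the 36 log2 differences were -0.05, -0.03, -0.04 and -0.05, against -0.0005, -0.0022, -0.0062 and -0.0095 over all tested genes. Counts this small turned on single libraries. Photocaged ibuprofen had 1 call without any 1 of 10 libraries (DMSO 6 h replicates 2 and 3, 12 h replicates 1 and 3 and 18 h replicate 1, and its own 6 h replicates 1 and 3, 12 h replicates 1 and 2 and 18 h replicate 3). Photocaged ibufenac had 4 without its 6 h replicate 3 and 2 without DMSO 18 h replicate 1 or 3. Ibuprofen probe had 3 without DMSO 6 h replicate 2 or its own 6 h replicate 1, and 2 without DMSO 12 h replicate 1, and ibufenac probe had 2 without DMSO 6 h replicate 3 or 12 h replicate 1.

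The differences from DMSO depended on the time. The arm-by-time interaction passed for 22 of 36 genes (61.1%), against 22.8% of all tested genes, with CDT1, MCM2, CCNE2, MCM10 and MCM5 at the smallest p-values. With GC and length trends removed 19 of 36 passed, against 15.2% of all genes. At single times, 39 of 648 gene-by-arm-by-time differences from DMSO passed, 28 lower and 11 higher, in 20 of the 36 genes. With the trends removed 19 of the 39 passed. In the 18 comparisons, the share of all tested genes called ran from 0.0% (ibuprofen bolus at 6 h) to 12.7% (ibufenac probe at 6 h). A pooled share over all tested genes, and its split by direction, was not computed. Neither the 39 nor its split into 28 and 11 can therefore be read as particular to these genes. In ibuprofen bolus 0 passed at 6, 12 or 18 h (backgrounds 0.0%, 0.0103% and 0.0723%), with 7, 6 and 3 at an unadjusted p under 0.05 with edgeR and 0 called by DESeq2. In ibufenac bolus 0 passed at 6 or 12 h (backgrounds 0.0258% and 0.0%), with 4 and 5 at an unadjusted p under 0.05 and 0 called by DESeq2, and in photocaged ibuprofen 0 passed at 6 h (background 0.992%), with 2 and 0. Comparisons at one time share their DMSO libraries, so a gene called in several arms at that time is not called independently in each.

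**Figure D3:**
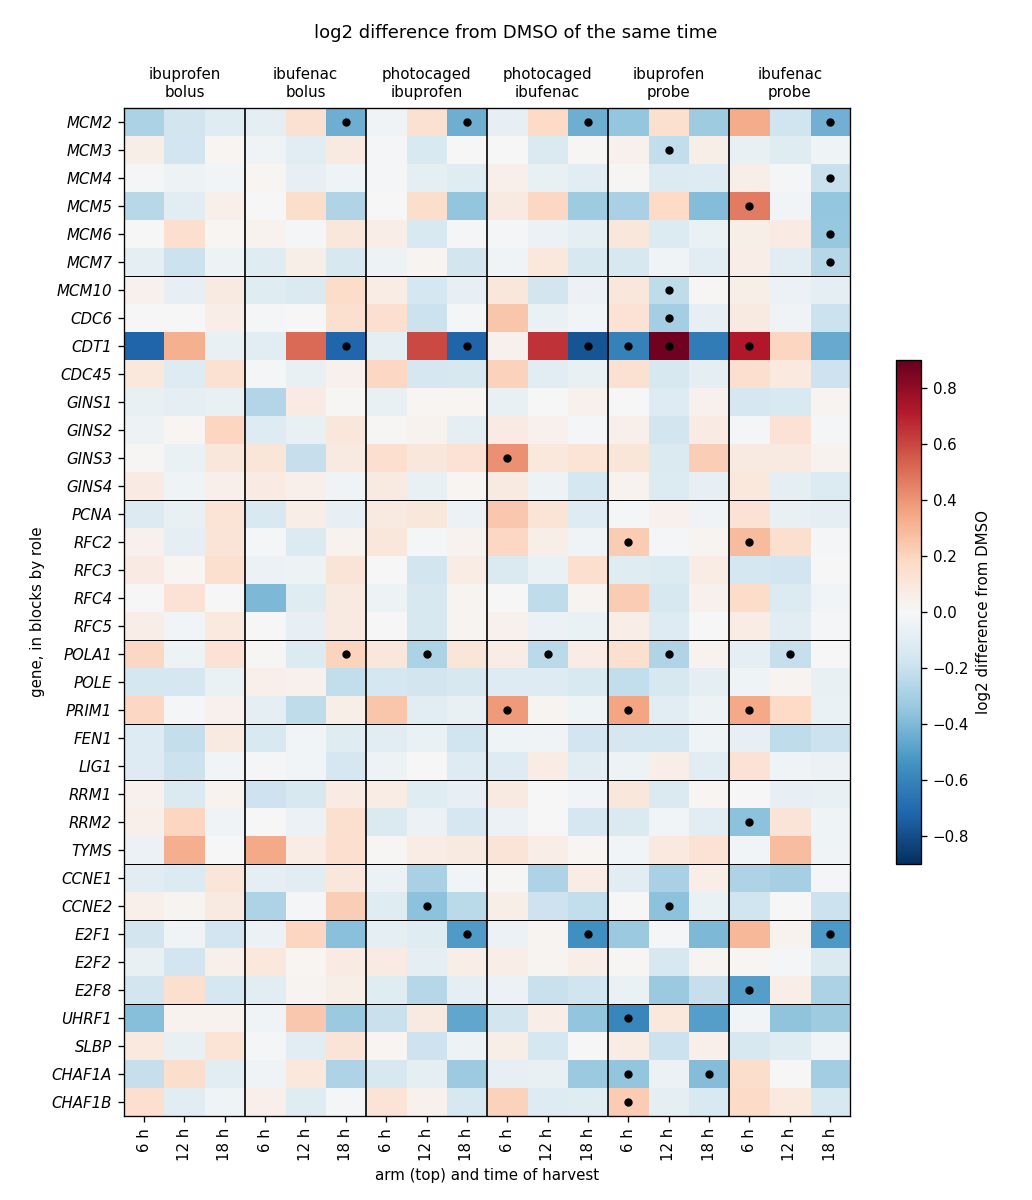
log2 difference from DMSO of the same time for 36 genes (rows, in blocks by role) in 6 arms at 6, 12 and 18 h (columns), on a colour scale from -0.9 to 0.9; dots mark differences that passed the edgeR test. At 18 h MCM2 is marked in 4 arms and E2F1 in 3, and CDT1 changes colour between times in every arm.

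Among the E2F factors, E2F1, an activator of S-phase genes, was lower at 18 h in 3 of the 4 photocaged and probe arms. DMSO libraries had 71.8, 86.1 and 80.7 CPM at 6 h, 75.3, 62.1 and 68.3 CPM at 12 h and 87.0, 74.9 and 71.1 CPM at 18 h. Ibufenac probe libraries had 96.0, 101 and 97.1 CPM at 6 h, 66.6, 62.8 and 80.8 CPM at 12 h and 58.7, 52.5 and 51.8 CPM at 18 h. They lay above all DMSO libraries at 6 h and below all of them at 18 h. The 18 h difference was -0.52 ± 0.12 (adjusted p = 0.0106), 0.699 times the DMSO level, in a comparison where 2.69% of tested genes were called. The 6 h difference of 0.30 ± 0.12 (adjusted p = 0.0961) did not pass, and it is given here without the trends removed. E2F1 has a transcript GC content of 62.5%, and the mean GC slope at 6 h was 0.13 in ibufenac probe and 0.03 in DMSO. At 18 h, photocaged ibuprofen had 59.4, 60.6 and 43.8 CPM (-0.51 ± 0.12, adjusted p = 0.0185) and photocaged ibufenac 49.2, 57.1 and 52.4 CPM (-0.55 ± 0.12, adjusted p = 0.00642). With the trends removed, ibufenac probe stayed below DMSO at -0.35 (adjusted p = 0.00635), while the photocaged arms gave -0.19 (adjusted p = 0.214) and -0.25 (adjusted p = 0.0653) and no longer passed. Averaged over the times E2F1 fell in photocaged ibuprofen (-0.23 ± 0.07, adjusted p = 0.0418) and ibuprofen probe (-0.25 ± 0.07, adjusted p = 0.0184), the latter at -0.09 (adjusted p = 0.249) with the trends removed.

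E2F8, which represses E2F targets, moved earlier. At 6 h, DMSO had 34.5, 32.4 and 32.5 CPM and ibufenac probe 22.2, 21.1 and 27.0 CPM, so the groups did not overlap (-0.50 ± 0.11, adjusted p = 0.00159). By 18 h DMSO itself had come down to 22.9, 27.0 and 23.7 CPM and ibufenac probe was at 19.0, 19.0 and 22.3 CPM, a difference that did not pass (-0.29 ± 0.12, adjusted p = 0.205). Over the 3 times E2F8 was lower in ibuprofen probe (-0.20 ± 0.07, adjusted p = 0.0457) and in ibufenac probe (-0.24 ± 0.07, adjusted p = 0.00822). E2F2, another activator, differed from DMSO in none of the 18 single-time comparisons.

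**Figure D4:**
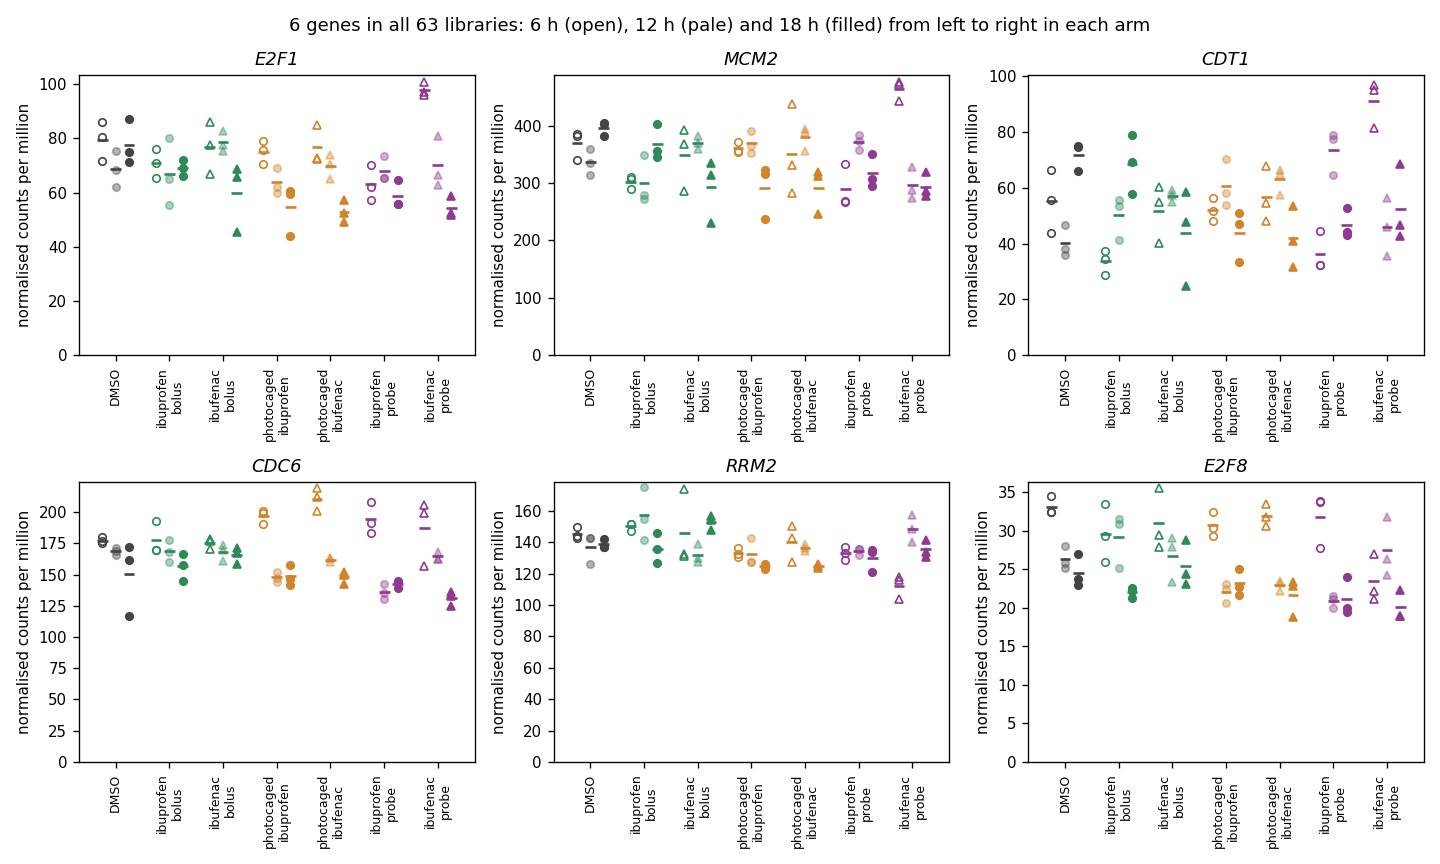
Normalised counts (CPM) (vertical axes from 0) of 6 genes in all 63 libraries, by arm and, within an arm, at 6, 12 and 18 h from left to right; circles are DMSO and ibuprofen arms, triangles ibufenac arms, and lines are group means. E2F1 and MCM2 in ibufenac probe are highest at 6 h and low at 18 h, and CDC6 is lower at 18 h than at 6 h in the photocaged and probe arms and in DMSO.

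Of the 6 subunits of the MCM2-7 helicase, 4 were lower with ibufenac probe at 18 h. MCM6 had 121, 124 and 120.3 CPM in DMSO and 93.5, 95.1 and 99.8 CPM in ibufenac probe at 18 h (-0.34 ± 0.07, adjusted p = 0.00399), a level below that of every other library of the series. MCM4, the least variable of the 36, had 392, 417 and 456 CPM and 371, 353 and 376 CPM (-0.20 ± 0.05, adjusted p = 0.0106). MCM7 had 600.5, 599 and 561 CPM and 497, 484 and 491 CPM (-0.26 ± 0.07, adjusted p = 0.0395). In each of these 3 genes the ibufenac probe libraries lay below all DMSO libraries of that time. MCM2 had 405, 402 and 382 CPM and 319, 277 and 285 CPM (-0.43 ± 0.12, adjusted p = 0.0387). With the trends removed the differences were -0.40 (adjusted p = 0.000345) for MCM6, -0.24 (adjusted p = 0.000843) for MCM4, -0.18 (adjusted p = 0.0185) for MCM7 and -0.34 (adjusted p = 0.00235) for MCM2. MCM3 (-0.04 ± 0.06, adjusted p = 0.816) and MCM5 (-0.35 ± 0.14, adjusted p = 0.188) did not pass.

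At 6 h none of the helicase genes was lower in that arm and MCM5 was higher. MCM5 had 229, 277 and 267 CPM in DMSO and 322, 365 and 381 CPM in ibufenac probe and rose (0.47 ± 0.14, adjusted p = 0.0147, background 12.7%). MCM2 had 339.9, 385 and 381 CPM in DMSO and 443, 476 and 473 CPM in ibufenac probe, without overlap, but did not pass (0.33 ± 0.12, adjusted p = 0.0617). At 18 h MCM2 was also lower in photocaged ibuprofen, with 316, 322 and 237 CPM (-0.44 ± 0.12, adjusted p = 0.0391, background 2.21%), and in photocaged ibufenac, with 246, 311 and 318 CPM (-0.44 ± 0.12, adjusted p = 0.0328, background 2.86%). Both held with the trends removed, at -0.29 (adjusted p = 0.0231) and -0.30 (adjusted p = 0.0119). In ibufenac bolus at 18 h MCM2 had 314, 334 and 230.0 CPM (-0.44 ± 0.12, adjusted p = 0.0289, background 5.03%), with the lowest value in the library that stands apart, and neither this call nor that of CDT1 or POLA1 in this comparison held without it or with the trends removed. MCM3 fell in ibuprofen probe at 12 h (-0.22 ± 0.06, adjusted p = 0.0219, background 1.97%), which did not hold with the trends removed.

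Of the factors that load and start the helicase, CDT1 moved most and in both directions. DMSO had 43.6, 55.7 and 66.3 CPM at 6 h, 46.6, 35.9 and 38.0 CPM at 12 h and 75.0, 74.6 and 66.2 CPM at 18 h. Ibufenac probe had 81.5, 96.9 and 95.1 CPM at 6 h, 45.9, 35.5 and 56.4 CPM at 12 h and 68.5, 46.5 and 42.6 CPM at 18 h. Ibuprofen probe had 32.1, 32.1 and 44.7 CPM, 77.5, 78.9 and 64.6 CPM and 42.9, 44.1 and 52.7 CPM at those times. At 6 h the mean of ibufenac probe was above that of DMSO and the mean of ibuprofen probe below it. CDT1 rose with ibufenac probe at 6 h (0.72 ± 0.20, adjusted p = 0.0117) and with ibuprofen probe at 12 h (0.87 ± 0.20, adjusted p = 0.0118). It fell with ibuprofen probe at 6 h (-0.61 ± 0.21, adjusted p = 0.0448, background 11.4%), where the lowest DMSO library was below the highest probe library, and at 18 h in photocaged ibuprofen (-0.72 ± 0.21, adjusted p = 0.047) and photocaged ibufenac (-0.78 ± 0.21, adjusted p = 0.0251).

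CDT1 levels moved with the GC slope of the libraries. In the library with the lowest CDT1 level, 24.8 CPM in ibufenac bolus at 18 h, the slope was -0.257, and in the 3 libraries of ibufenac probe at 6 h, between 81.5 and 96.9 CPM, slopes were 0.06 to 0.17. With GC and length trends removed, the difference of ibuprofen probe at 6 h shrank from -0.61 to -0.02 (adjusted p = 0.938). The other differences kept their sign, at 0.45 (adjusted p = 0.000296) for ibufenac probe at 6 h, 0.53 (adjusted p = 0.000695) for ibuprofen probe at 12 h, -0.27 (adjusted p = 0.099) for photocaged ibuprofen at 18 h and -0.37 (adjusted p = 0.0186) for photocaged ibufenac at 18 h. MCM4, with a GC content of 48.5%, near the 48.3% median of all tested genes, stayed between 353 and 479 CPM over all 63 libraries.

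**Figure D5:**
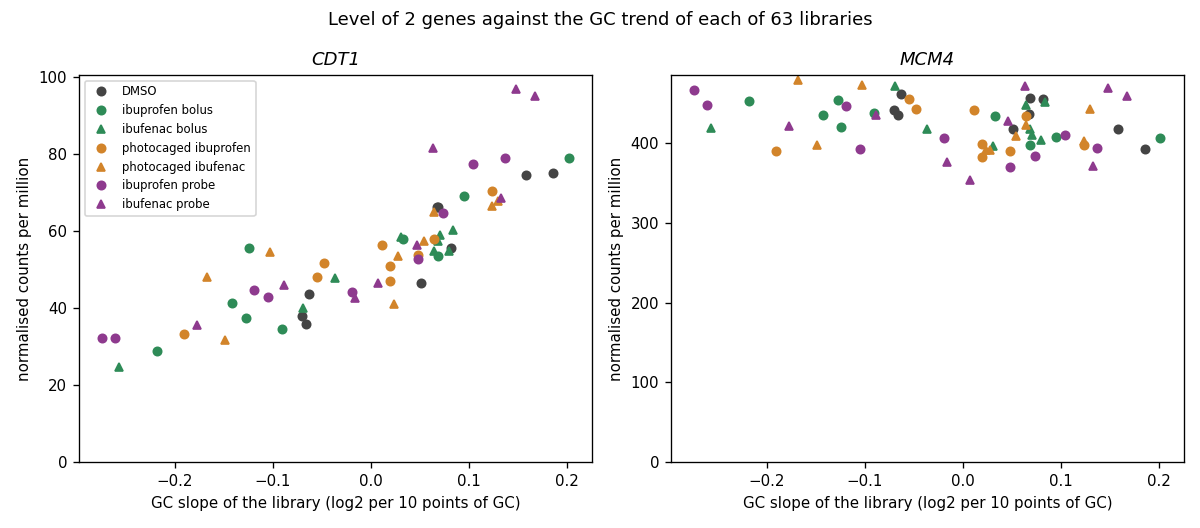
Normalised counts (CPM) of CDT1 (left) and MCM4 (right) in each of 63 libraries against the library's GC slope, the log2 level gained per 10 points of transcript GC; colours and shapes mark the arms. CDT1 ranges from 24.8 to 96.9 CPM with the low values at negative slopes, while MCM4 stays between 353 and 479 CPM.

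CDC6, the other loading factor, fell from 6 h to 18 h in all 4 photocaged and probe arms. It also fell in DMSO, though there not with the trends removed (-0.21, adjusted p = 0.0916). The change of CDC6 minus that of DMSO passed in no arm. Photocaged ibufenac had 219, 212 and 201 CPM at 6 h and 149.6, 152 and 142 CPM at 18 h (-0.51 ± 0.08, adjusted p = 7.69e-06). Against DMSO it passed only with ibuprofen probe at 12 h, where it had 143, 135 and 130.4 CPM against 169, 171 and 166 CPM (-0.31 ± 0.08, adjusted p = 0.0253), and -0.25 (adjusted p = 0.134) with the trends removed. MCM10, which helps the helicase start, fell in the same comparison (-0.23 ± 0.06, adjusted p = 0.0181, and -0.15, adjusted p = 0.183 with the trends removed). CDC45, a part of the active helicase, fell over time in all 4 of those arms, for example from 107, 129.6 and 116 CPM to 83.2, 85.1 and 79.6 CPM in photocaged ibuprofen (-0.51 ± 0.07, adjusted p = 8.69e-07). Against DMSO it passed at no single time, and its change minus that of DMSO passed only in ibufenac probe. GINS3 of the GINS complex was higher in photocaged ibufenac at 6 h, with 61.5, 52.2 and 53.5 CPM against 35.9, 43.8 and 46.1 CPM (0.41 ± 0.09, adjusted p = 0.00668, background 3.03%), and over the 3 times (0.21 ± 0.05, adjusted p = 0.0102, and 0.15, adjusted p = 0.0971 with the trends removed). GINS1, GINS2 and GINS4 passed in no comparison with DMSO.

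The clamp PCNA passed in none of the comparisons with DMSO. DMSO had 241, 253 and 268 CPM at 6 h and 277, 292 and 292 CPM at 18 h, a change that did not pass (0.17 ± 0.08, adjusted p = 0.122). Ibuprofen bolus had 219.6, 248 and 231 CPM at 6 h and 301, 324 and 310.4 CPM at 18 h and rose (0.42 ± 0.08, adjusted p = 6.51e-05). Ibufenac probe stayed between 253 and 284 CPM at the 3 times. RFC2, a subunit of the clamp loader, rose at 6 h with ibufenac probe, at 102, 108 and 106 CPM against 85.3, 92.5 and 81.9 CPM in DMSO (0.28 ± 0.07, adjusted p = 0.00659). With ibuprofen probe it had 103, 98.2 and 103 CPM (0.23 ± 0.07, adjusted p = 0.0374), and 0.22 (adjusted p = 0.0517) with the trends removed. It was also higher over the 3 times with ibufenac probe (0.14 ± 0.04, adjusted p = 0.0238). RFC3, RFC4 and RFC5 passed in no comparison with DMSO.

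The polymerase genes moved in different directions. PRIM1, which makes the RNA primer, rose at 6 h in 3 arms. DMSO had 39.3, 39.3 and 41.1 CPM and photocaged ibufenac 58.8, 49.8 and 47.2 CPM (0.38 ± 0.09, adjusted p = 0.0092). Ibuprofen probe had 47.7, 56.6 and 48.5 CPM (0.35 ± 0.09, adjusted p = 0.00906) and ibufenac probe 57.2, 43.9 and 50.2 CPM (0.34 ± 0.09, adjusted p = 0.00839). All 9 of those libraries were above the 3 of DMSO. So were those of photocaged ibuprofen (47.0, 45.4 and 49.6 CPM) and ibuprofen bolus (47.6, 44.5 and 44.1 CPM), which did not pass. Ibufenac bolus, at 37.9, 40.8 and 33.9 CPM, was not above DMSO. By 12 h DMSO had reached 49.3, 48.8 and 49.6 CPM and no arm differed from it. With the trends removed, ibuprofen probe gave 0.15 (adjusted p = 0.356), and the ibufenac arms still passed. Over the 3 times PRIM1 was higher with ibufenac probe (0.15 ± 0.05, adjusted p = 0.0461), at 0.13 (adjusted p = 0.0614) with the trends removed.

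POLA1, the catalytic subunit of the polymerase that extends the primer, was lower at 12 h in the 4 photocaged and probe arms. DMSO had 184, 184 and 182 CPM, photocaged ibuprofen 155, 152 and 145 CPM (-0.28 ± 0.06, adjusted p = 0.015, background 0.677%) and photocaged ibufenac 152, 156 and 157 CPM (-0.24 ± 0.06, adjusted p = 0.0264, background 1.58%). Ibuprofen probe had 153, 148 and 156 CPM (-0.27 ± 0.06, adjusted p = 0.0107) and ibufenac probe 165, 166 and 145 CPM (-0.21 ± 0.06, adjusted p = 0.0358, background 4.51%). The DMSO libraries at 12 h were also above those of DMSO at 6 h and 18 h, and only the ibufenac probe call held with the trends removed (-0.24, adjusted p = 0.00461). POLE, the catalytic subunit of the leading-strand polymerase, fell over the 3 times in photocaged ibuprofen (-0.15 ± 0.04, adjusted p = 0.0352) and ibuprofen probe (-0.15 ± 0.04, adjusted p = 0.0261). Both held with the trends removed, and the gene had 267, 299 and 313 CPM in ibuprofen probe at 18 h against 346, 296 and 292 CPM in DMSO. FEN1, which trims Okazaki fragments, fell over the 3 times with ibufenac probe (-0.16 ± 0.04, adjusted p = 0.00796). It passed at no single time, and at 12 h it had 118, 119.9 and 141 CPM in that arm against 146, 155 and 142 CPM in DMSO. LIG1, which seals them, passed in no comparison.

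Among the genes of nucleotide supply, RRM2, the regulated subunit of ribonucleotide reductase, was lower at 6 h with ibufenac probe. It had 116, 104 and 118 CPM against 149.7, 143 and 144 CPM in DMSO (-0.37 ± 0.07, adjusted p = 0.000286), 0.773 times the DMSO level, and -0.32 (adjusted p = 0.000261) with the trends removed. At 12 h the arm was at 158, 148 and 140.0 CPM and DMSO at 126, 143 and 143 CPM, and the groups overlapped. At 18 h they overlapped too, at 131, 134 and 142 CPM and 137, 137 and 142 CPM. TYMS was the most uneven of the group, with 48.0, 37.5 and 92.6 CPM in ibufenac bolus at 6 h, where the third, high library is one that stands apart. It also had 86.4, 50.5 and 48.5 CPM in ibufenac probe at 12 h. It passed in no comparison, and RRM1 passed against DMSO in none.

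CCNE1 and CCNE2 encode the cyclin E proteins. CCNE2 was lower at 12 h in photocaged ibuprofen, at 41.9, 42.3 and 38.9 CPM against 47.8, 54.5 and 56.4 CPM in DMSO (-0.37 ± 0.09, adjusted p = 0.0333), and in ibuprofen probe at 44.3, 38.9 and 39.6 CPM (-0.37 ± 0.09, adjusted p = 0.0167). Neither ibuprofen group overlapped with DMSO, but with the trends removed they gave -0.28 (adjusted p = 0.0992) and -0.26 (adjusted p = 0.0998). Over the 3 times CCNE2 fell in photocaged ibuprofen (-0.24 ± 0.05, adjusted p = 0.00354), and this held at -0.28 (adjusted p = 7.59e-05) with the trends removed. CCNE1 had 36.4, 34.4 and 34.6 CPM in DMSO at 12 h and 29.6, 28.6 and 28.1 CPM in ibuprofen probe, and passed in no comparison.

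Of the genes that serve chromatin, UHRF1, which guides DNA methylation to new strands, was lower with ibuprofen probe at 6 h. It had 89.8, 89.8 and 103 CPM against 120.5, 151 and 152 CPM in DMSO (-0.58 ± 0.15, adjusted p = 0.00761), 0.667 times the DMSO level, and this held with the trends removed (-0.53, adjusted p = 0.00905). Its average over the 3 times was lower in the same arm (-0.33 ± 0.08, adjusted p = 0.00951). CHAF1A, the large subunit of the CAF-1 histone chaperone, also fell with ibuprofen probe, at 6 h (-0.35 ± 0.11, adjusted p = 0.0268), at 18 h (-0.39 ± 0.11, adjusted p = 0.045, background 1.78%) and over the 3 times (-0.27 ± 0.06, adjusted p = 0.0044). Only its average held with the trends removed (-0.19, adjusted p = 0.0172). CHAF1B, the middle subunit, moved the other way in that arm at 6 h (0.23 ± 0.07, adjusted p = 0.0197), a call that ended with the trends removed. SLBP passed against DMSO at no time.

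Ibufenac and ibuprofen were compared in each form at matched times, which gave 3 averaged and 9 single-time comparisons. Averaged over the times, 0 of 36 genes differed in the bolus, photocaged or probe forms (backgrounds 0.0%, 0.0362% and 2.82%), where 3, 1 and 5 had an unadjusted p under 0.05 with edgeR and DESeq2 called 0, 0 and 1. In the probe form 1 gene passed without ibuprofen probe 6 h replicate 3 or without ibufenac probe 6 h replicate 3, 12 h replicate 2 or 18 h replicate 2. This does not show that the drugs acted alike. The 95% intervals of the 36 log2 differences reached from -0.30 to 0.30 in the bolus form, from -0.20 to 0.28 in the photocaged form and from -0.24 to 0.51 in the probe form. In the photocaged form 0 genes differed at any single time either (background 0.0% at each). There 2, 1 and 1 had an unadjusted p under 0.05 at 6, 12 and 18 h with edgeR, and DESeq2 called 0. Intervals there reached from -0.47 to 0.53.

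The probe form at 6 h had the most calls, with 11 of 36 genes different, 7 higher and 4 lower with ibufenac. Against the background of 23.6%, that is an excess of no more than a few genes. CDT1 had the largest difference (1.33 ± 0.21, adjusted p = 1.07e-05), followed by MCM5 (0.76 ± 0.14, adjusted p = 5.43e-05), MCM2 (0.68 ± 0.12, adjusted p = 5.56e-05), E2F1 (0.63 ± 0.12, adjusted p = 0.000129), UHRF1 (0.56 ± 0.15, adjusted p = 0.00375) and CHAF1A (0.51 ± 0.11, adjusted p = 0.000455). MCM2 had 269, 267 and 333 CPM with ibuprofen and 443, 476 and 473 CPM with ibufenac, on either side of DMSO. MCM7 was also higher with ibufenac, and E2F8, POLA1, RRM2 and SLBP were lower. The GC slopes of these 6 libraries differ, at a mean of -0.22 for ibuprofen and 0.13 for ibufenac. With the trends removed 7 genes were called (background 13.5%), all higher with ibufenac, and 4 of these were among the 11. These were CDT1, MCM5, MCM2 and UHRF1, at 0.47, 0.55, 0.39 and 0.49. The other 7 of the 11 no longer passed, among them E2F1 at -0.01 (adjusted p = 0.945) and MCM7 at -0.05 (adjusted p = 0.52), which changed sign, and RRM2 at -0.06 (adjusted p = 0.639). At 12 h CCNE2 (0.37 ± 0.09, adjusted p = 0.0183) and GINS2 (0.30 ± 0.07, adjusted p = 0.0237) were higher with ibufenac probe (background 1.92%), at 0.26 (adjusted p = 0.0727) and 0.20 (adjusted p = 0.154) with the trends removed. That count was 9 with DESeq2 and 9 without the libraries that stand apart, 7 of them higher in each. It was 0 without ibuprofen probe 12 h replicate 2 or 3, 1 without ibufenac probe 12 h replicate 1 or 2 and 5 without ibufenac probe 12 h replicate 3. At 18 h 0 genes differed (background 0.0%, 3 with an unadjusted p under 0.05 with edgeR, 0 with DESeq2).

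For the bolus form at 6 h, RFC4, CCNE2 and RRM1 were lower with ibufenac (background 2.3%), led by RFC4 (-0.40 ± 0.10, adjusted p = 0.0264). None of the 3 passed without the libraries that stand apart, where RFC4 was at -0.38 (adjusted p = 0.0506), or with the trends removed. The count was 0 without ibuprofen bolus 6 h replicate 1 or 2 or ibufenac bolus 6 h replicate 3, and 1 without ibuprofen bolus 6 h replicate 3. At 12 h and 18 h 0 genes differed between the bolus arms (backgrounds 0.0362% and 0.0%), with 9 and 8 at an unadjusted p under 0.05 with edgeR and 0 called by DESeq2, and at 12 h 2 passed without ibuprofen bolus 12 h replicate 1. Probe and photocaged forms of the same drug differed, over the 3 times, for 0 of 36 genes with either drug (backgrounds 0.0982% for ibuprofen and 2.68% for ibufenac), with 0 and 5 at an unadjusted p under 0.05 with edgeR and 0 called by DESeq2.

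A wider list of 93 further genes of the same pathway was counted for comparison. Against DMSO over the 3 times, 7 of the 93 passed in photocaged ibuprofen, 10 in photocaged ibufenac, 10 in ibuprofen probe and 22 in ibufenac probe, against 4.28%, 7.49%, 8.43% and 13.2% of all tested genes. As shares of the list these are 7.53%, 10.8%, 10.8% and 23.7%. Among them HELLS, a chromatin remodeler of replicating cells, fell in photocaged ibuprofen (-0.23 ± 0.06) and photocaged ibufenac (-0.25 ± 0.06). CCND1, the cyclin D1 gene that acts upstream of E2F, fell with ibuprofen probe (-0.53 ± 0.10) and ibufenac probe (-0.72 ± 0.10). BRCA1 rose in those 2 arms (0.19 ± 0.04 and 0.21 ± 0.04), as did CHEK1, a checkpoint kinase, with ibufenac probe (0.24 ± 0.04). In DMSO between 6 h and 18 h 32 of the 93 passed (background 17.5%), 25 lower and 7 higher, and CDKN1A, the inhibitor of cyclin-dependent kinases also called p21, rose by 1.46 ± 0.09 on the log2 scale.

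A list of 30 genes of G2 and mitosis was counted in the same way. In DMSO, 25 of the 30 fell between 6 h and 18 h (background 17.5%), with a median log2 change of -0.36 against -0.10 for the 36. With ibufenac probe, 19 of 30 were lower than DMSO at 6 h and 11 at 12 h, and 8 were higher at 18 h, while none moved the other way (backgrounds 12.7%, 4.51% and 2.69%). KIF20A, a kinesin of cell division, was lower at 6 h (-0.63 ± 0.09) and 12 h (-0.61 ± 0.09), and CENPF, a kinetochore gene, was higher at 18 h (0.31 ± 0.09). The change from 6 h to 18 h, minus that of DMSO, was higher for 20 of these 30 genes (background 7.98%, median 0.52) in the arm where it was lower for 11 of the 36 (median -0.17). The median over all tested genes was 0.03.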

How the data were processed

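Total RNA from 63 HEK293T libraries was depleted of ribosomal RNA and sequenced with a stranded kit, per the labels' protocols. The authors deposited 1 table of expected counts per gene (estimated counts, of which 22.6% of the values of at least 1 were not whole) and 1 of FPKM. For the aligner, the counting tool, the genome build and the use of strand, the sources used here give no record. Expected counts were rounded to whole numbers. Library totals ran from 12.1 to 38.4 M counts. No 2 of the 63 pairs of libraries within a group agreed within sampling noise.

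Genes were kept with edgeR's filterByExpr (minimum count 10), scaled with TMM factors (0.908 to 1.11) and tested with the quasi-likelihood test in 1 fit of 21 groups (R 4.3.3, edgeR 4.0.16, limma 3.58.1, 42 residual degrees of freedom, threshold 0.05). P-values were adjusted over all 19352 tested genes within each comparison. The deposited FPKM values were used only to compare levels between genes. The GC slope is each library's log2 level fitted on transcript GC (GENCODE 29), and trends were removed with a spline of 5 degrees of freedom in GC and length as offsets.

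The 36 genes and the lists were chosen with earlier results of these data known. For each comparison averaged over the times, up to 4 called genes in each direction were named, along with MCM2, CDC6, CCNE1, CCNE2, E2F1, PCNA, RRM2, TYMS and UHRF1. Of the other lists up to 2 called genes per direction were eligible. All other named genes, and the comparisons of 18 h with 6 h in the drug arms and of that change with DMSO's, were chosen after their values were seen. Alternatives were DESeq2 1.42.0, other size factors, no filter, a replicate block, the removed trends, fewer libraries and each library left out. The tests were tried on simulated counts.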

Additional observations from a re-analysis of the deposited data

Results flagged for a closer look

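For 22 of the 36 genes the difference of the drug arms from DMSO changed with the harvest time, by the test of the arm-by-time interaction over all 6 arms and 3 times (edgeR, F test with 12 degrees of freedom). The interaction had adjusted p-values of 2.09e-06 for CDT1 and 7.52e-05 for MCM2. For CCNE2 and MCM10 the value was 0.000186 each, for MCM5 0.000377, for CDC45 0.000658 and for MCM6 0.000893. RFC4 (0.00133), RRM2 (0.00155), CDC6 (0.00176), POLA1 (0.00194), E2F1 (0.00245), PCNA (0.00251), UHRF1 (0.00277) and PRIM1 (0.00306) followed. CHAF1B (0.00448), E2F8 (0.00467) and GINS2 (0.00968) were under 0.01, and MCM7 (0.0131), RRM1 (0.0166), FEN1 (0.0449) and RFC2 (0.0487) were closer to the threshold. The test does not say in which arm or at which time a gene differed, and for PCNA, RRM1, RFC4, GINS2, CDC45 and FEN1 no single time passed against DMSO in any arm.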

How the results depend on the processing

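With 3 libraries per group the precision differed between genes. The pooled SD within groups ran from 0.05 for MCM4 to 0.27 for CDT1 on the log2 scale, and for CDT1 and the other GC-rich genes the GC slope of the libraries moves with the groups. Of 1349 recomputed values for 189 called differences of single genes under other settings, 1093 stayed past the threshold, 252 did not and 4 reversed. The reversed values are those of ibufenac against ibuprofen as probes at 6 h with trends removed, without and with the replicate block: -0.0539 and -0.0543 for MCM7 and -0.0129 and -0.0133 for E2F1, none past the threshold. With single libraries left out, 966 of 1368 stayed and 402 did not, and none reversed. For counts of the 36 genes called, the values that moved by more than 1.5 times are given here, and the cause was not tested unless fewer samples were used. The settings without the libraries that stand apart, and the block combined with removed trends, were chosen after seeing the data.

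Without a low-count filter the counts were, over the 3 times, 1 in ibuprofen bolus, 5 in photocaged ibuprofen, 2 in photocaged ibufenac and 4 between the drugs as probes. They were 6 for DMSO at 18 h against 6 h. For the change minus that of DMSO they were 2 in ibuprofen bolus, 3 in ibufenac bolus, 2 in photocaged ibuprofen, 3 in photocaged ibufenac and 7 in ibufenac probe, and at single times 4 in ibuprofen bolus, 7 in ibufenac bolus and 9 in photocaged ibuprofen. They were 11 for 18 h against 6 h in photocaged ibuprofen, and between the drugs 5, 3 and 4 as boluses at 6, 12 and 18 h and 5 as probes at 12 h. With GC and length trends removed the counts over the 3 times were 6 in photocaged ibuprofen, 3 in photocaged ibufenac, 8 in ibuprofen probe and 9 in ibufenac probe. The change minus that of DMSO then gave 0 in ibufenac bolus and 2 in photocaged ibufenac, and single times gave 0 in ibufenac bolus and 5 in ibuprofen probe. It gave 2 for DMSO at 12 h against 6 h, and between the drugs at 6 h 0 as boluses and 7 as probes. With 6 and 12 h only, the counts were 1 in photocaged ibuprofen, 2 in photocaged ibufenac, 2 in ibuprofen probe, 7 in ibufenac probe, and between the drugs 4 as boluses and 3 as probes. DESeq2 gave 1 between the drugs as probes, 3 and 1 for the changes in ibufenac bolus and photocaged ibufenac, and at single times 6 in ibufenac bolus and 11 in photocaged ibufenac. It also gave 2 for DMSO at 12 h against 6 h and 9 between the drugs as probes at 12 h. With RLE size factors the counts were 1 between the drugs as probes over the 3 times, 6 at 12 h, and 0 for the change in ibufenac bolus, and with only the libraries of the 2 arms 1 between the drugs as probes. Without the libraries that stand apart they were 2 in photocaged ibufenac and 1 between the drugs as probes over the 3 times, 0 and 1 for the changes in ibufenac bolus and photocaged ibufenac, and 0 at single times in ibufenac bolus. Between the drugs they were then 1 as boluses at 6 h and 9 as probes at 12 h.

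Same-numbered libraries of different groups showed little tendency to deviate together. The median r was 0.0192 over 189 pairs, 57 of them over 0.1, against -0.0036 over 378 pairs with different numbers, 95 of them over 0.1. The labels do not say what the numbers mean, and these medians do not settle whether same-numbered libraries share a culture or a run. With the replicate number as a block the counts were 1 between the drugs as probes over the 3 times and 7 for 18 h against 6 h in ibuprofen bolus. It also gave 2 each for DMSO at 12 h against 6 h and at 18 h against 12 h, and 4 between the drugs as probes at 12 h. The block with trends removed gave, over the 3 times, 6 in photocaged ibuprofen, 3 in photocaged ibufenac and 10 in ibufenac probe, for the changes 0 in ibufenac bolus and 1 in photocaged ibufenac, and at single times 0 in ibufenac bolus and 6 in ibuprofen probe. It gave 2 for DMSO at 18 h against 12 h, and between the drugs at 6 h 0 as boluses and 7 as probes.

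With 1 library left out at a time, the counts over the 3 times ranged from 1 to 4 in photocaged ibuprofen and in photocaged ibufenac, from 2 to 6 in ibuprofen probe, from 2 to 5 in ibufenac probe and from 0 to 1 between the drugs as probes. For 18 h against 6 h they ranged from 7 to 14 in DMSO, 6 to 11 in ibuprofen bolus and 11 to 16 in photocaged ibuprofen. In DMSO 12 h against 6 h gave 0 throughout, and 18 h against 12 h gave 2 to 4. The changes gave 0 to 3 in ibufenac bolus, 0 to 1 in photocaged ibufenac and 6 to 11 in ibufenac probe. Single times gave 0 to 1 in ibuprofen bolus, 0 to 7 in ibufenac bolus, 2 to 5 in photocaged ibuprofen, 3 to 7 in photocaged ibufenac and 7 to 15 in ibuprofen probe. Between the drugs they gave 0 to 3 and 0 to 2 as boluses at 6 and 12 h and 0 to 5 as probes at 12 h. The interaction stayed between 20 and 23 genes.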
